A study of Mus musculus with 8 samples.

Results

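The genes described here encode the proteins of the cytosolic ribosome in mouse germ cells and in the cultures derived from them. A gene was taken when its symbol began with Rpl or Rps and a number, or was Rplp0, Rplp1 or Rplp2, and S6 kinases (Rps6k) and pseudogene names were left out. On the arrays 60 genes matched, and 59 of them had a probe with a value on all 8 arrays, out of 14030 genes with such a probe. The 59 comprise 32 proteins of the large subunit, 1 protein of its P stalk (Rplp1) and 19 proteins of the small subunit. A further 5 are paralogs of core proteins (Rpl22l1, Rpl39l, Rpl3l, Rps27l and Rps4l), and 2 match by name only in part: Rpl7l1, a relative of Rpl7, and Rps19bp1, a binding partner of Rps19 that is not itself a ribosomal protein. The rule used no measured difference between groups. Among the RefSeq protein-coding genes 88 match it, and 29 of these, such as Rplp0, Rplp2, Rps6, Rps27a and Rpl3, had no named probe and are not analysed here.

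The cytosolic ribosome joins a small subunit, which reads the mRNA, to a large subunit, which forms the peptide bond, and each holds 1 copy of most of its proteins. Their genes are transcribed strongly in nearly every growing cell. Most of their mRNAs start with a C followed by a run of pyrimidines, the TOP (terminal oligopyrimidine) tract, through which the TOR kinase and the protein Larp1 regulate their translation, and Larp1 is also known to stabilise them. An array measures the amount of an mRNA and not its translation.

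The groups, each with 2 arrays, were E11.5PGCs (primordial germ cells, the embryonic precursors of eggs and sperm, at E11.5), Day3(2i+A83) and Day6(2i+A83) (cells after 3 and 6 days of culture) and EG(2i+A83) (embryonic germ cells, a pluripotent cell type derived from primordial germ cells). They are called E11.5PGCs, Day3, Day6 and EG below. All cells carried a Nanog-GFP reporter, and candidate pluripotent cells were purified by FACS during the culture. The medium held 15% serum replacement, LIF, bFGF and 3 inhibitors: A83-01 at 250 nM against Activin and Nodal receptors, CHIR99021 at 3 µM against GSK3, and PD325901 at 1 µM against MEK. That protocol stands on every sample, E11.5PGCs included, so which cells met the inhibitors before harvest cannot be read from it. The labels also call every sample, EG included, primordial germ cells. How many embryos or EG lines were used is not given in the sources used here, so a p-value measures only the spread between arrays, which may be technical. In the array names 2 series can be told apart. Both EG arrays and the first replicate of every other group belong to series A, and series B holds the second replicate of those other groups.

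The transcript starts of the members show how many carry the letters of a TOP tract. The tract was searched as a C followed by at least 6 letters that are C or T, on the strand of the gene, starting within 10 bases of a RefSeq transcript start. It was found at 25 of the 47 members that the RefSeq promoter table (GRCm38.p6) holds (53.2%), against 14.1% of all 27025 genes in that table. With a shorter tract of 5 letters in all the shares were 63.8% of members and 34.4% of all genes, and with 8 letters 42.6% and 9.43%. Each line gives 15 bases before and 15 after the start, 5′ to 3′ on the strand of the gene, with the tract in capitals. The first 4 are bright members picked for their long tracts, and other bright members, such as Rpl41, Rpl26 and Rps3, have none under this rule. The next 4 are members whose level differed between groups in a model described below, and the last 2 are paralogs. Whether tracts differ between steady and changing members was not tested. For genes with several starts the most upstream is shown.
Rpl15, chr14:18270972-18271001, minus strand: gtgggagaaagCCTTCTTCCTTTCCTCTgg
Rpl27a, chr7:109519180-109519209, plus strand: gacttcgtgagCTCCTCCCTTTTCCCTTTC
Rpl35, chr2:39005117-39005146, minus strand: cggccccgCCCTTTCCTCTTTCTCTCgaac
Rps10, chr17:27635230-27635259, minus strand: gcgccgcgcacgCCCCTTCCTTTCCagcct
Rps21, chr2:180257364-180257393, plus strand: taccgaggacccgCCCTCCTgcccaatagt
Rps19, chr7:24884577-24884606, plus strand: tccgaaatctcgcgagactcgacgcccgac
Rps25, chr9:44407699-44407728, plus strand: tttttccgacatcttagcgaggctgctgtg
Rpl22, chr4:152324421-152324450, plus strand: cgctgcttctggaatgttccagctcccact
Rpl22l1, chr3:28805493-28805522, plus strand: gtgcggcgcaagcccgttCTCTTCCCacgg
Rpl39l, chr16:10170213-10170242, plus strand: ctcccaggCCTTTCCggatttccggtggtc
The tracts of Rpl15, Rpl27a, Rpl35, Rps10 and Rps21 each span the annotated start, that of Rpl39l ends just before it and that of Rpl22l1 begins after it. Rps25 and the 2 annotated starts of Rpl22 have no tract under this rule, and Rps19 has one only at a start further downstream. A start without a tract says only that these letters are not in this window.

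Values are linear spot intensities that the authors scaled to an array median near 20 (19.99 to 20.01). Of 23473 probes, 21126 to 22404 were measured per array. The summed intensity of 10 germ cell markers was 18231 and 10933 in E11.5PGCs, 8744 and 7247 in Day3 cells, 1521 and 4022 in Day6 cells, and 2417 and 1940 in EG. That of 10 pluripotent cell markers was 22037 and 20204, 31392 and 23211, 33440 and 40602, and 44208 and 52838 in the same order. The germ cell sum was highest on the E11.5PGCs arrays. The pluripotent cell sum was highest on the EG arrays and is carried mostly by Dppa5a, while in EG over Day6 only 4 of the 10 markers had a positive change and 0 were called (limma, with and without the array series as a term, 2 unadjusted without it).

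The median level of the ribosomal protein genes overlapped between all groups, from E11.5PGCs through the culture to EG. Of single probes 2321 of 20761 were called between EG and E11.5PGCs, a measure unlike the median of a set. Their median intensity was 12293 and 9937 in E11.5PGCs, 12571 and 10141 in Day3 cells, 10686 and 10869 in Day6 cells, and 10116 and 12228 in EG. The 4 groups overlap, and the lowest arrays are replicate 2 of E11.5PGCs and replicate 1 of EG. The mean over the 8 arrays exceeded an intensity of 8192 for 34 members, and the sum over members made 9.05% to 10.5% of the summed intensity of an array. Whether such bright spots neared saturation is not given in the sources used here, and a probe for a ribosomal protein gene may also catch its pseudogenes, which cannot be told apart.

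**Figure D1:**
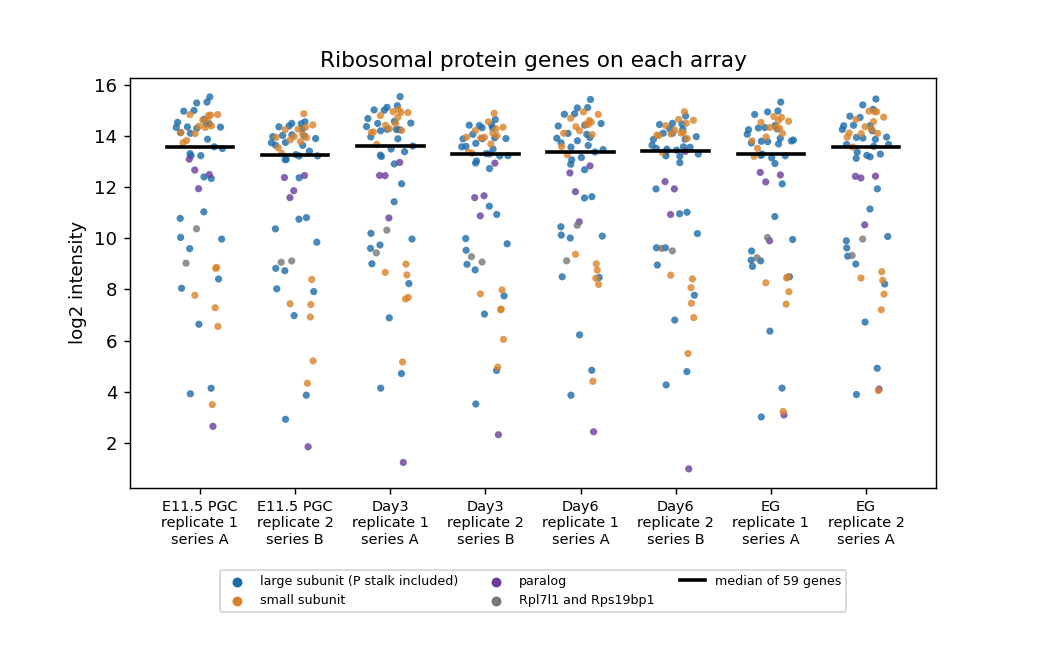
Log2 intensity of the 59 ribosomal protein genes on each array (1 point a gene, coloured by role), with the median of the 59 as a bar. The array medians lie between 13.28 and 13.62 on the log2 scale, and the groups overlap.

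The spread of the members between groups was small. The largest distance between any 2 of a gene's 4 group means was 0.35 on the log2 scale for the median member, and 0.81 for the median of all 19524 probes measured on every array. That distance was under 0.5 for 42 members (71.2%), against 25.5% of all probes, and over 1 for 8 members (13.6%), against 38.2%. The median member lay at percentile 99.4 of these probes by mean intensity, so most probes in the comparison are far dimmer. Probes of like brightness were not compared, here or for the shares of all probes given below. Of the 34 bright members 33 stayed under 0.5, and the widest of them, Rpl27a of the large subunit, reached 0.59.

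In the model without a term for array series (limma, Benjamini-Hochberg over all probes tested, threshold 0.05) none of the 59 members was called in any comparison. In Day3 over E11.5PGCs 0 of 59 were called, against a background of 2.08% of all probes tested, and 3 had an unadjusted p under the threshold. In Day6 over Day3 0 of 59 were called, the background was 0%, and 2 passed unadjusted. In Day6 over E11.5PGCs 0 of 59 were called, against 8.61% of probes, and 5 passed unadjusted. In EG over Day6 0 of 59 were called, against 0.169%, and 4 passed unadjusted. In EG over E11.5PGCs 0 of 59 were called, against 11.2%, and 4 passed unadjusted. A test over all 4 groups together (limma's moderated F) called 0 members, against 9.13% of probes, and 3 passed unadjusted. The share of all probes that passed unadjusted was not computed, so the unadjusted counts here and below have no background beside them.

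The absence of a call does not bound every gene. The standard error of a change ran from 0.25 to 0.76 on the log2 scale, with a median of 0.33. In Day3 over E11.5PGCs the 95% interval stayed inside a 2-fold change for 31 of 59 members, in Day6 over Day3 for 32, in Day6 over E11.5PGCs for 27, in EG over Day6 for 27 and in EG over E11.5PGCs for 28. The other members may have changed more than that in either direction.

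The median change of the members was 0.014 (log2) in Day3 over E11.5PGCs, against -0.13 for all probes tested. It was 0.0015 against -0.047 in Day6 over Day3, and -0.017 against -0.16 in Day6 over E11.5PGCs. In EG over Day6 it was 0.041 against -0.0073, and in EG over E11.5PGCs 0.10 against -0.16. With the array series as a term the median was -0.12, against -0.019 for all probes, in EG over Day6 and -0.15, against -0.18, in EG over E11.5PGCs, so the sign of both depends on how the 2 series are treated. Comparisons that share E11.5PGCs or Day6 share those arrays.

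Changes over 2-fold were few. In Day3 over E11.5PGCs 1 member passed that size, against 12.6% of probes, and in Day6 over Day3 1, against 7.68%. In Day6 over E11.5PGCs 4 did, against 21.3%, in EG over Day6 4, against 11.7%, and in EG over E11.5PGCs 5, against 25.3%. The arrays of the 2 groups did not overlap for 14 of 59 members in Day3 over E11.5PGCs (background 41.1%), 6 in Day6 over Day3 (30.6%), 17 in Day6 over E11.5PGCs (49.6%), 23 in EG over Day6 (46.2%) and 16 in EG over E11.5PGCs (64.2%).

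**Figure D2:**
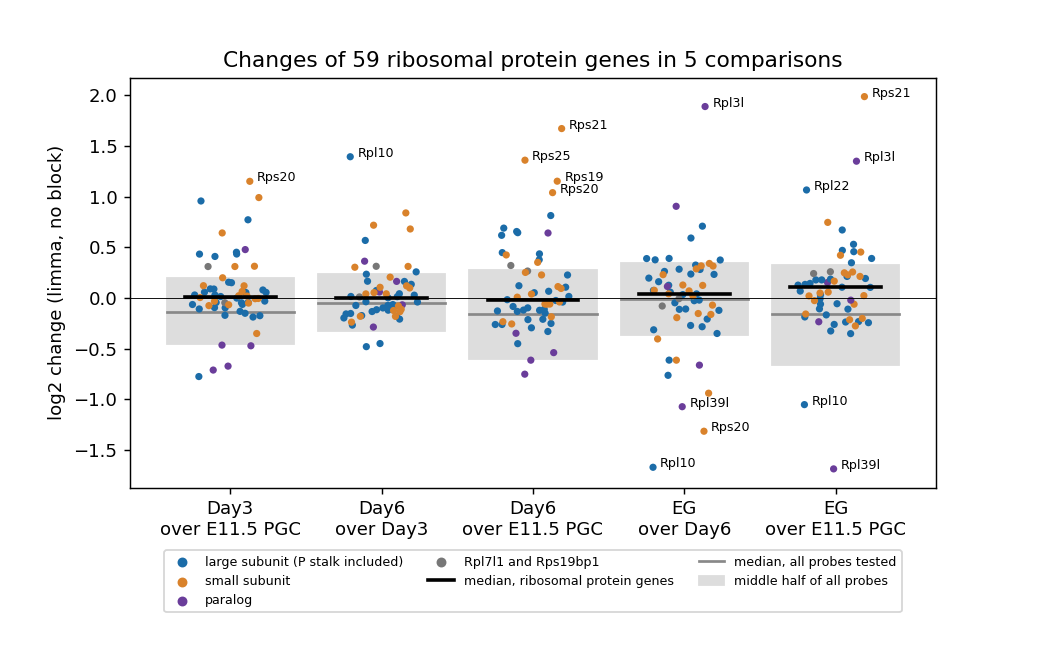
Fitted log2 change of each of the 59 members in the 5 comparisons (limma without a series term), with the member median as a black bar; grey bars and boxes give the median and the central range of all probes tested, and members past 2-fold are named. Rps21 lies at 1.67 in Day6 over E11.5PGCs and at 1.99 in EG over E11.5PGCs, and Rpl39l at -1.69 in EG over E11.5PGCs.

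Group means of the bright core of the large subunit varied little, while the 2 arrays of a group could lie far apart. Rpl41, the shortest ribosomal protein, had an intensity of 47498 and 24167 in E11.5PGCs, 47971 and 25765 in Day3 cells, 44418 and 28326 in Day6 cells, and 41369 and 44930 in EG. Its series A arrays are all near each other and its series B arrays all lower, whatever the group. Rpl8 had 22969 and 22971 in E11.5PGCs, 19670.0 and 22330.0 in Day3 cells, 17237 and 22866 in Day6 cells, and 20007 and 18975 in EG. Both E11.5PGCs arrays are the highest of the 8, with a change of -0.24 ± 0.27 in EG over E11.5PGCs (limma adjusted p 0.622). Rpl5 and Rpl11 join the 5S RNA in a particle that, outside the ribosome, binds Mdm2, the inhibitor of p53. Rpl11 had 12293 and 10920.0 in E11.5PGCs, 10766 and 9604 in Day3 cells, 10686 and 12133 in Day6 cells, and 9641 and 10078 in EG, and its EG and Day3 arrays lie below both E11.5PGCs arrays. Rpl5 had 32910 and 21619, 33101 and 21929, 30092 and 20037, and 20675 and 27294 in the same order, with overlap of all groups. In EG over E11.5PGCs their changes were -0.23 ± 0.25 for Rpl11 and -0.17 ± 0.38 for Rpl5 (SE, 2 arrays a group), neither called. Mdm2, which is no member, had 336 and 353 in E11.5PGCs, 657 and 718 in Day3 cells, 456 and 653 in Day6 cells, and 535 and 441 in EG. Its change in Day3 over E11.5PGCs was 1.00 (adjusted p 0.161 in limma without and 0.0445 with the series term).

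Rplp1 of the P stalk, which recruits elongation factors, had 17758 and 13844 in E11.5PGCs, 18989 and 13487 in Day3 cells, 12197 and 10785 in Day6 cells, and 14283 and 15821 in EG. Both Day6 arrays are the lowest of the 8. It had the lowest change of all members in Day6 over Day3, -0.48 ± 0.30 (limma adjusted p 0.785), and Rpl17 followed with -0.45 ± 0.31 (adjusted p 0.839). Rpl17 had 74.7 and 112 in Day6 cells, against 119 and 131 in Day3 cells, and its Day6 arrays lie below both Day3 arrays.

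Rpl22, an RNA-binding protein of the large subunit that the ribosome can do without and that mouse T cell development needs, was the large subunit protein called in a comparison once the array series was a term. Its intensity was 265 and 261 in E11.5PGCs, 514 and 506 in Day3 cells, 361 and 498 in Day6 cells, and 479 and 632 in EG. The E11.5PGCs arrays are the lowest 2 of the 8, and no other group overlaps them. In EG over E11.5PGCs the change was 1.07 ± 0.29, with an adjusted p of 0.0587 (limma without the series term). With the series term it was 1.14 ± 0.26 with an adjusted p of 0.0246, a call. In Day3 over E11.5PGCs the change was 0.96 in each series taken alone, with adjusted p 0.180 without and 0.0620 with the term.

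Rpl10, an X-linked protein that joins the large subunit late in its maturation, varied widely and was called in no model run here. It had 1761 and 1325 in E11.5PGCs, 781 and 1020 in Day3 cells, 1404 and 3918 in Day6 cells, and 565 and 959 in EG. The Day6 value rests on replicate 2, which is the highest of the 8 arrays. Its change was -0.78 ± 0.52 in Day3 over E11.5PGCs, 1.39 ± 0.52 in Day6 over Day3, -1.67 ± 0.52 in EG over Day6 and -1.05 ± 0.52 in EG over E11.5PGCs. The lowest adjusted p among these was 0.244 (limma, EG over Day6), or 0.172 with the series term.

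Of the small subunit, 3 proteins were called once the array series was a term in the model, and the probes of all 3 read far below those of the bright members. Rps21 had an intensity of 93.8 and 36.8 in E11.5PGCs, 206 and 66.1 in Day3 cells, 294 and 119 in Day6 cells, and 241 and 226 in EG. The series B array of each group is far below the series A array, and within each series the order runs E11.5PGCs, Day3, Day6. In Day6 over E11.5PGCs the change was 1.67 ± 0.70 (adjusted p 0.203) without the term and 1.67 ± 0.20 (adjusted p 0.00310) with it, and within the series it was 1.65 in A and 1.70 in B. In Day3 over E11.5PGCs the change was 0.99 ± 0.20 with the term (adjusted p 0.0340), and in EG over E11.5PGCs 1.27 ± 0.21 (adjusted p 0.00993). The EG value without the term was larger, 1.99 ± 0.70 (adjusted p 0.120), since both EG arrays are of series A.

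Rps19, the protein most often mutated in human Diamond-Blackfan anaemia, had 156 and 121 in E11.5PGCs, 198 and 147 in Day3 cells, 347 and 269 in Day6 cells, and 172 and 148 in EG. Both Day6 arrays stand above all others. In Day6 over E11.5PGCs its change was 1.15 ± 0.30 (adjusted p 0.0627) without and 1.15 ± 0.19 (adjusted p 0.00896) with the series term, and 1.16 and 1.15 within series A and B. In EG over Day6 it was -0.94 ± 0.30 (adjusted p 0.258), with the EG arrays below both Day6 arrays.

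Rps25, which initiation at some internal entry sites needs, had 219 and 174 in E11.5PGCs, 407 and 227 in Day3 cells, 665 and 377 in Day6 cells, and 307 and 349 in EG. The E11.5PGCs arrays are the lowest 2. In Day6 over E11.5PGCs its change was 1.36 ± 0.40 (adjusted p 0.0899) without and 1.36 ± 0.22 (adjusted p 0.00804) with the term, 1.60 within series A and 1.12 within B.

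With the series term 1 of 59 members was called in Day3 over E11.5PGCs (background 8.34%), 0 in Day6 over Day3 (1.80%), 3 in Day6 over E11.5PGCs (23.8%), 0 in EG over Day6 (1.96%) and 2 in EG over E11.5PGCs (23.6%). All of these rose, and they are Rps21, Rps19, Rps25 and Rpl22. The test over 4 groups called 5 members (background 27.5%), these and Rpl30 of the large subunit (adjusted p 0.0475). All 5 read at most 1033 on any array, while 34 other members exceeded 8192 on average, and none of those 34 was called. Rpl30 had 775 and 426 in E11.5PGCs, 856 and 436 in Day3 cells, 1033 and 793 in Day6 cells, and 557 and 511 in EG, and its EG arrays lie below both Day6 arrays. In each of these tests the share of members called was below the background share, though for Day6 over Day3 and EG over Day6 it is near it. Unadjusted, 6 members passed in Day6 over Day3 with the term (5 higher, 1 lower) and 9 in EG over Day6 (1 higher, 8 lower), with no background computed. Leaving out 1 array at a time in this model kept the call of Rps21 in Day6 over E11.5PGCs every time. Rps19 lost its call without replicate 1 of E11.5PGCs (adjusted p 0.0551) and without replicate 1 of Day6 (0.0515), and Rps25 lost its call without the same arrays (0.0556 and 0.0591). Neither EG call remained without replicate 1 of E11.5PGCs or without either EG array, and that of Rpl22 was also lost without replicate 2 of E11.5PGCs. The call of Rps21 in Day3 over E11.5PGCs remained only when a Day6 array was the one left out.

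Rps20 was dim and varied. It had 11.3 and 20.1 in E11.5PGCs, 35.8 and 31.2 in Day3 cells, 21.2 and 45.0 in Day6 cells, and 9.37 and 16.5 in EG. The Day3 and Day6 arrays lie above the other 4. Its change was 1.15 ± 0.49 in Day3 over E11.5PGCs, the highest of all members (adjusted p 0.344), and -1.32 ± 0.49 in EG over Day6 (adjusted p 0.321). Other dim members of the large subunit were Rpl37, between 7.56 and 19.2 on the 8 arrays, and Rpl21, between 14.5 and 30.2.

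**Figure D3:**
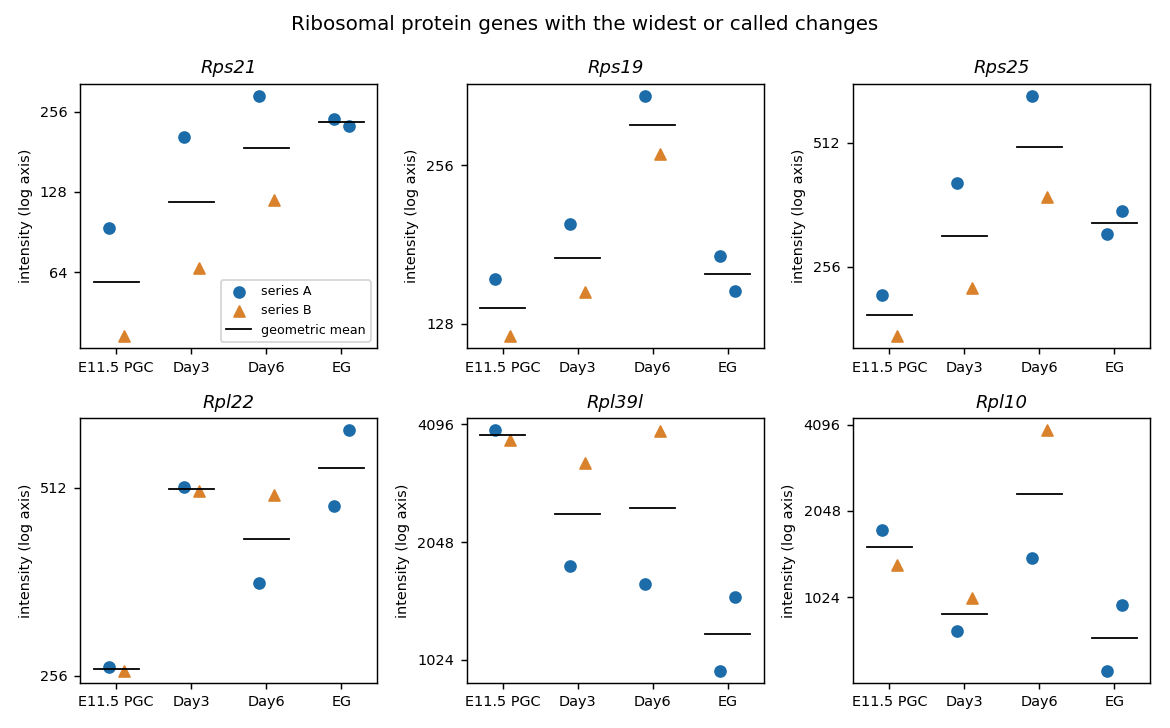
Intensity (log axis) on each array for 6 members, with series A as circles, series B as triangles and the geometric mean of each group as a line. Rps21, Rps19 and Rps25 lie higher at Day6 than in E11.5PGCs within each series, Rpl22 is lowest in E11.5PGCs, and Rpl39l and Rpl10 have their lowest group mean in EG.

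The paralogs did not move as 1 group. Rpl39l, a copy of Rpl39 used in mouse male germ cells, had 3946 and 3736 in E11.5PGCs, 1781 and 3256 in Day3 cells, 1604 and 3922 in Day6 cells, and 961 and 1479 in EG. Both EG arrays are the lowest 2 of the 8. Its change in EG over E11.5PGCs was -1.69 ± 0.50 (adjusted p 0.0772) and -1.34 ± 0.40 (adjusted p 0.0561) with the series term, and it passed the threshold when either Day6 array was left out (adjusted p 0.0377). Rpl39 itself had 7801 and 9365 in EG, against 5432 and 5303 in E11.5PGCs, a change of 0.67 ± 0.26 (adjusted p 0.156). The 2 groups do not overlap for either gene.

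Rpl22l1, whose mRNA Rpl22 is known to repress, had 6535 and 3092 in E11.5PGCs, 5624 and 1885 in Day3 cells, 3635 and 1959 in Day6 cells, and 4734 and 5275 in EG. Its series B arrays are the lowest 3, and its groups overlap apart from EG against Day6. Its change was -0.75 ± 0.61 in Day6 over E11.5PGCs (adjusted p 0.523, or 0.0617 with the term) and 0.90 ± 0.61 in EG over Day6 (0.31 with the term). Rps27l, a p53 target, had 5793 and 5650 in E11.5PGCs, 8050 and 7885 in Day3 cells, 7327 and 10869 in Day6 cells, and 5730 and 5543 in EG. The Day3 and Day6 arrays lie above the other 4, and the changes were 0.64 ± 0.28 in Day6 over E11.5PGCs (adjusted p 0.226) and -0.66 ± 0.28 in EG over Day6 (adjusted p 0.387).

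Rps4l, a mouse copy of Rps4x, had 8784 and 5336 in E11.5PGCs, 5652 and 3092 in Day3 cells, 6046 and 4782 in Day6 cells, and 6129 and 5522 in EG. Its change in Day3 over E11.5PGCs was -0.71 ± 0.39 (adjusted p 0.499), and the groups overlap. Rpl3l, a paralog of striated muscle, was dim in every group. It had 6.24 and 3.59 in E11.5PGCs, 2.34 and 4.97 in Day3 cells, 5.39 and 1.97 in Day6 cells, and 8.50 and 17.1 in EG. The EG arrays are the highest 2. Its change of 1.89 ± 0.63 in EG over Day6 (adjusted p 0.276) was the highest of all members in that comparison, and that in EG over E11.5PGCs was 1.35 ± 0.63.

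Rps12, the matching gene that had no value on some arrays and is not among the 59, was also dim, with 1.84 and 4.06 in E11.5PGCs, 1.66 on 1 Day3 array, 2.85 on 1 Day6 array, and 1.32 and 1.22 in EG. Rpl7l1 stayed between 522 and 782 on the 8 arrays. Rps19bp1 had 1049 and 1005 in EG, against 1328 and 555 in E11.5PGCs, and its series B arrays were the lowest 3. For 3 members a second probe could be compared. The 2 probes of Rpl5 changed in the same direction in all 5 comparisons. Those of Rpl37a differed in sign in Day3 over E11.5PGCs (-0.044 and 0.12), and those of Rpl26 in Day6 over Day3 (0.074 and -0.12).

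Many members differed between the array series. Series B minus series A, averaged over E11.5PGCs, Day3 and Day6, had a median of -0.36 (log2) over the members and of -0.037 over all probes. It was below 0 for 46 of 59 members, and 36 were lower on series B in all 3 groups, as were 31.4% of all probes. The lowest was Rps15a of the small subunit at -1.57, and the highest Rpl39l at 0.69. Rps15a had 454 and 170 in E11.5PGCs, 509 and 150.5 in Day3 cells, 513 and 176 in Day6 cells, and 350 and 414 in EG, so its 3 series B arrays stand apart from the other 5. What the series stands for is not given in the sources used here. With EG on series A only, a comparison with EG cannot be told apart from a series effect unless that effect is the same in every group.

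**Figure D4:**
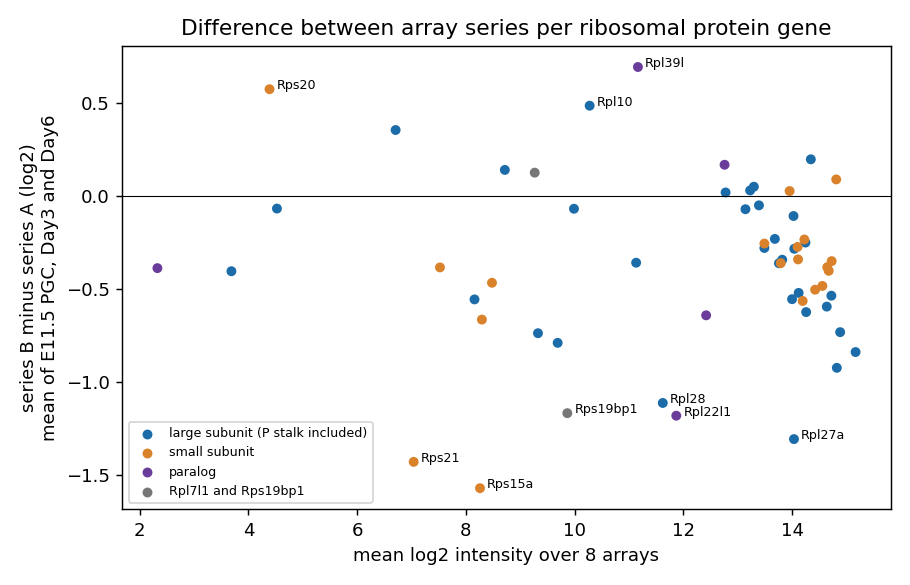
Series B minus series A in log2 intensity (mean of E11.5PGCs, Day3 and Day6) for each member against its mean log2 intensity over the 8 arrays. Points below 0 are genes lower on series B, and Rps15a lies lowest at -1.57.

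Among other genes of ribosome production, calls were made in EG. Of 72 tested genes of ribosome biogenesis (nucleolar processing, RNA polymerase I, export) 13 fell and 0 rose in EG over E11.5PGCs (limma, background 11.2%), with a median change of -0.67, against 0.10 for the ribosomal proteins and -0.16 for all probes. With the series term 31 fell and 1 rose (background 23.6%). Without either EG array no gene of the list was called, without replicate 1 of E11.5PGCs 3 fell and without its replicate 2 only 1 fell. Nop16, a nucleolar factor of the large subunit, had 8.12 and 7.84 in EG, against 49.9 and 33.7 in E11.5PGCs, a change of -2.36 ± 0.30 (adjusted p 0.00583). Utp4, of the small subunit processome, had 259 and 207 in EG, against 868 and 1242 in E11.5PGCs, a change of -2.17 ± 0.32 (adjusted p 0.00977). For both genes the EG arrays lie below both E11.5PGCs arrays. The highest change of the list was that of Polr1d, a shared subunit of RNA polymerases I and III, in Day6 over E11.5PGCs (1.10 ± 0.34, adjusted p 0.102, or 0.0278 with the term). In Day6 over E11.5PGCs 2 of the 72 fell (background 8.61%), Nop16 and Utp4. In the 3 other comparisons none was called without the series term. Unadjusted, 11 passed in Day3 over E11.5PGCs, 1 in Day6 over Day3 and 15 in EG over Day6. With the term 12 fell and 1 rose in Day6 over E11.5PGCs (background 23.8%), 2 fell in Day3 over E11.5PGCs (8.34%), 1 fell in EG over Day6 (1.96%) and 0 were called in Day6 over Day3.

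Of 76 tested mitochondrial ribosomal proteins 4 fell in EG over E11.5PGCs (Mrpl11, Mrpl3, Mrps22 and Mrps14) and 0 rose without the series term, a share below the background of 11.2%, with a median change of -0.54. With the term 33 of 76 fell, against a background of 23.6%. In the model without the term, leaving out any 1 of the E11.5PGCs or EG arrays left no gene of the list called. Mrpl11 had 206 and 201 in EG, against 464 and 661 in E11.5PGCs, a change of -1.45 ± 0.35 (adjusted p 0.0405), with no overlap. Without the term no gene of the list was called in the other 4 comparisons (2 to 15 passed unadjusted). With it 12 fell and 2 rose in Day6 over E11.5PGCs (background 23.8%). In Day3 over E11.5PGCs 1 fell (8.34%), in EG over Day6 1 fell (1.96%) and in Day6 over Day3 0 were called (1.8%). Mrps31 had both the highest and the lowest change of the list, 1.26 ± 1.69 in EG over Day6 and -1.97 ± 1.69 in Day6 over E11.5PGCs.

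Of 34 initiation factors 2 fell in EG over E11.5PGCs without the series term, a share below the background of 11.2%, and 0 were called in the other 4 comparisons (0 to 4 unadjusted). With the term 7 fell in EG over E11.5PGCs (background 23.6%), 2 rose and 2 fell in Day6 over E11.5PGCs (23.8%), 2 fell in EG over Day6 (1.96%), 1 fell in Day3 over E11.5PGCs (8.34%) and 0 were called in Day6 over Day3. Eif4h, a cofactor of the helicase Eif4a, had 73.4 and 70.8 in EG, against 275 and 676 in E11.5PGCs, a change of -2.58 ± 0.47 (adjusted p 0.0182). Eif1b fell by 1.56 on the log2 scale (adjusted p 0.0242), and Eif4a2 had the highest change, 1.42 ± 0.48 (adjusted p 0.106). Of 8 genes listed with the elongation factors, Eef2k and Eef1e1 are not such factors. None of the 8 was called in any comparison without the term (0 to 3 unadjusted). With it 1 rose in each comparison with E11.5PGCs, for Day3 (background 8.34%), Day6 (23.8%) and EG (23.6%). It was Eef2k, the kinase that inhibits elongation factor 2, and no other gene of this list was called. Eef2k was dim, with 3.43 and 5.75 in E11.5PGCs and 12.8 and 13.9 in Day6 cells. Its change was 1.58 ± 0.39 in Day6 over E11.5PGCs (adjusted p 0.0507, or 0.00714 with the term), and Eef1e1 had the lowest change, -1.31 in EG over E11.5PGCs. Rpsa and Fau, ribosomal proteins with other symbols, were not called with or without the term: their changes in EG over E11.5PGCs were 0.041 ± 0.33 and 0.43 ± 0.42.

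Of 20 tested genes of the TOR pathway, which acts on TOP mRNAs, and of S6 kinases 5 fell and 0 rose in Day6 over E11.5PGCs (background 8.61%): Mtor, the kinase itself, Tsc1 and Tbc1d7 of the complex that restrains it, and Rps6ka3 and Rps6ka5, kinases that MAP kinases are known to activate. Mtor had 124 and 143 in Day6 cells, against 306 and 353 in E11.5PGCs, a change of -1.30 ± 0.26 (adjusted p 0.0269), and its groups do not overlap. In EG over E11.5PGCs 4 of 20 fell (background 11.2%), Mtor, Tsc1, Rps6ka3 and Rps6ka5, the last with the lowest change of the list (-2.24 ± 0.40, adjusted p 0.0168). The highest was Rps6ka1, 0.98 ± 0.27 in Day6 over E11.5PGCs (adjusted p 0.0716). In the 3 other comparisons none of 21 was called (2 to 5 unadjusted). These counts are without the series term. With it 6 fell and 2 rose in Day6 over E11.5PGCs (background 23.8%), 6 fell in EG over E11.5PGCs (23.6%), 3 fell and 1 rose in Day3 over E11.5PGCs (8.34%) and 0 were called in the other comparisons. A list of 8 genes held Myc, which drives ribosome production, Mycn and Mycl. It also held Max, Mxd1, Mxi1, Mnt and Mlx, which are not Myc genes. Of the 8, 1 was called without the series term, Mycl in EG over E11.5PGCs (background 11.2%). Its change was -2.02 ± 0.45 (limma adjusted p 0.0320), and Myc had the highest change of the list, 1.11 ± 0.74. With the term 3 of the 8 fell in EG over E11.5PGCs (background 23.6%), a count over the whole list.

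Other cell types could add ribosomal protein mRNA to a sample. The summed intensity of 14 fibroblast or mesenchyme markers was 1029 and 1364 in E11.5PGCs, 2256 and 1651 in Day3 cells, 5526 and 2501 in Day6 cells, and 2692 and 1928 in EG, highest on Day6 replicate 1, which also has the highest Rps21, Rps19 and Rps25. Those genes read higher on series A, that of Day6 replicate 1, than on series B in E11.5PGCs, Day3 and Day6. Rps20, Rps27l and Rpl10 instead were highest on Day6 replicate 2. Of the fibroblast or mesenchyme markers 13 were tested in Day6 over E11.5PGCs, and all 13 had a positive change. By limma 0 were called without the series term (background 8.61%), with 4 passing unadjusted. With the term, the model in which Rps21, Rps19 and Rps25 were called, 3 of the 13 rose, against a background of 23.8% of all probes. The summed intensity of 12 gonadal somatic markers lay between 51.5 and 99.6, that of 8 endothelial markers between 105 and 506, and that of 7 blood markers between 170 and 628. Their part in the changes of the ribosomal protein genes was not tested, and fewer cells of a type cannot be told apart from less RNA per cell.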

How the data were processed

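RNA of 8 samples (4 groups, 2 arrays each) was turned into Cy5-labelled aminoallyl aRNA, per the labels. The authors deposited linear intensity per probe, 1 table for all arrays, scaled to a median near 20. How background was corrected and scaling done, and why values are missing, is not given in the sources used here. Of 23473 probes 19524 had a value on all arrays. A single symbol was given for 16631 probes (12622 current, 3947 replaced through synonyms, 62 kept) and 6842 were unnamed. Values were used as deposited, on the log2 scale, with missing values left missing. Each gene was read from its brightest probe with a value on all arrays.

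Tests used limma 3.58.1 in R 4.3.3 over all 8 arrays, with Benjamini-Hochberg adjustment over all probes with values on both arrays of both groups, at 0.05. Scripts were tested on simulated data. The array series was an alternative block. Deviations of same-series arrays from their group means correlated across all probes for E11.5PGCs with Day3 (r = 0.620), E11.5PGCs with Day6 (0.547) and Day3 with Day6 (0.694). Across all probes they did not correlate with the replicate numbers of EG (-0.025 to 0.061), whose arrays are of 1 series. Over the 59 members these correlations were 0.679, 0.749 and 0.642. With EG they were 0.245 for E11.5PGCs, 0.415 for Day3 and 0.283 for Day6. Other alternatives were quantile normalization, a pseudocount of 2, removal of the dimmest 25% of probes, a trended and robust prior variance, and leaving out each array. The members and lists were chosen with earlier results of these data known. Named were 4 members in each comparison (2 at the top and 2 at the bottom by change), the paralogs, Rplp1, Rpl5, Rpl11, members whose probes disagree, members called in any model, and the highest and lowest of each list. Further examples were chosen with their values seen: Rpl41 and Rpl8 (bright), Rpl37 and Rpl21 (dim), Rpl27a, Rps15a and Rpl39. Sequences are RefSeq's (GRCm38.p6). The depth of an array cannot be given, and 2 arrays a group limit the precision.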

Additional observations from a re-analysis of the deposited data

How the results depend on the processing

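Without the series term 0 of 59 members were called, and settings added few. With the array series as a replicate block 1 was called in Day3 over E11.5PGCs, 3 in Day6 over E11.5PGCs, 2 in EG over E11.5PGCs and 5 across the 4 groups, and the median change became -0.145 in EG over E11.5PGCs and -0.116 in EG over Day6. Quantile normalization called 2 in Day6 over E11.5PGCs (Rps19 and Rps25). A pseudocount of 2, removal of the dimmest 25% of probes and a trended, robust prior each called 1 there (Rps19) and 1 in EG over E11.5PGCs (Rpl22). With 1 array left out the counts ran from 0 to 1 in EG over E11.5PGCs and stayed 0 otherwise. The median change then ran from -0.242 to 0.323 in Day3 over E11.5PGCs, -0.230 to 0.241 in Day6 over Day3, -0.250 to 0.287 in Day6 over E11.5PGCs, -0.054 to 0.099 in EG over Day6 and -0.180 to 0.324 in EG over E11.5PGCs, so no sign of a member median is settled. A group left with 1 array is assumed to vary like the others. Genes of ribosome biogenesis that fell in EG over E11.5PGCs numbered 0 to 16 without 1 array.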
